A study of Drosophila melanogaster with 3 samples.

Results

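The 290 genes annotated with the biotype tRNA on the chromosome arms X, 2L, 2R, 3L and 3R of the dm6 build were examined for peaks of the homeodomain protein HHEX (CG7056). They were chosen by annotation alone, out of 18164 annotated genes on the 6 arms once transposable elements were set aside, and arm 4 held 0 of them. Mitochondrial tRNA genes were not used. The peaks came from chromatin immunoprecipitation followed by sequencing (ChIP-seq) on whole Drosophila melanogaster embryos of both sexes, aged 0 to 24 h, from 1 transgenic line that stably expresses CG7056 with GFP fused to its C-terminus. The sample descriptions state that the immunoprecipitation used an anti-GFP antibody, while the antibody field names HHEX, and the sources used here do not settle which applies. Chromatin was sheared to 200 to 800 bp, and 3 biological replicates formed 1 group. The promoter driving the fusion is not given in the sources used here. There was no second condition and no untagged or control sample among those analysed, so regions that the antibody enriches without the fusion protein cannot be told apart from HHEX sites. Embryos of all stages and tissues were mixed, so few cells with a site and weak enrichment in many cells cannot be told apart. The thresholded list, made by the authors with the irreproducible discovery rate (IDR) procedure, held 5586 peaks, and the pooled and replicate lists held 30000 regions each, background regions included.

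Transfer RNA genes are short genes transcribed by RNA polymerase III. Their promoter lies inside the gene, where the A box and the B box are bound by the factor TFIIIC, which then places TFIIIB and the polymerase at the start. In many animals, flies included, they exist as families of identical or nearly identical copies, often in clusters. Homeodomain factors such as HHEX are known as regulators of RNA polymerase II genes.

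The internal promoter words are shown in 6 tRNA genes that lay near an IDR summit, so that the place of the summit can be set against them. Gene names are given without the prefix tRNA. Each gene is printed 5′ to 3′ on its own strand, from the release 6 genome, with the A box word TNGNNNAG and the B box word GTTCNANNC in capitals.
Tyr-GTA-1-8 (chr3R:8669081-8669174, minus strand): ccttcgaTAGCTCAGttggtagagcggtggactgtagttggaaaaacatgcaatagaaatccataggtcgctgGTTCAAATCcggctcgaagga
Leu-TAA-2-1 (chr3R:24112964-24113047, plus strand): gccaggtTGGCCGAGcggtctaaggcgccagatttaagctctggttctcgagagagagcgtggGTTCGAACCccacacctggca
Leu-TAA-4-1 (chr3R:24265259-24265342, plus strand): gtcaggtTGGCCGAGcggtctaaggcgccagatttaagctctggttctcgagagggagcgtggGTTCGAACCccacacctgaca
Val-CAC-2-5 (chr3R:19672277-19672349, minus strand): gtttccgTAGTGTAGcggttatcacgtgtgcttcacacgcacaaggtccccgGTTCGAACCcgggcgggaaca
Cys-GCA-1-2 (chr3L:3095991-3096062, plus strand): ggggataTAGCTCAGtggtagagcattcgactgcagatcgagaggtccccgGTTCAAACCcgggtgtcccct
Gln-TTG-2-1 (chrX:3427452-3427523, minus strand): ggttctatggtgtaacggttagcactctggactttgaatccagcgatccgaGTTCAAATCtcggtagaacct
The words were searched on the gene's own strand, the A box within the first 30 bases and the B box from after base 36. The A box word was in 256 of the 290 genes (88.3%) and the B box word in 271 (93.4%), against 7.72% and 0.466% of the adjoining 73-bp tiles of the 6 arms. The A box word was loosened after a stricter one, TNGCNNAG, had been seen to match only 144 genes (49.7%), so its share describes the word chosen. Among the genes with an IDR summit within 500 bp, 22 held the A box word and 24 the B box word. Gln-TTG-2-1 is a printed gene in which the A box word was not found. The leucine genes Leu-TAA-2-1 and Leu-TAA-4-1 differ at 3 of 84 positions, C2T, A55G and G82A, counted from the 5′ end with the first gene's base first, and none of these positions is in a capitalised word.

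The first question was how many tRNA genes had a peak. An IDR summit lay within 500 bp of 24 of the 290 genes (8.28%), and 266 had none. These summits belonged to 17 peaks, or 0.304% of all IDR peaks, since neighbouring tRNA genes share summits. As a background, 4.19% of all 73-bp windows of the arms, the median length of a tRNA gene, had an IDR summit within the same distance. By the distance to the gene's 5′ end the count of tRNA genes was again 24, against 15.1% of the starts of all other genes. The tRNA genes thus stood above the average position of the arms and below the average gene start. Among other short noncoding genes the share was 9.67% for snoRNA genes, 18.8% for the 32 snRNA genes and 5% for microRNA genes. These values were not tested against each other, because there is 1 group and genes are not replicates of it.

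A nearby protein-coding transcription start site (TSS) went with a higher share. Of 33 tRNA genes with such a TSS within 500 bp, 8 had an IDR summit (24.2%) and 25 had none. Of the 257 without one, 16 had a summit (6.23%). The same split of the arm windows gave 14.2% with and 2.8% without a protein-coding TSS. Among snoRNA genes the shares were 36.7% and 6.28%, and among microRNA genes 9.09% and 4.41%. Among snRNA genes they were close, at 1 of 5 (20%) with such a TSS and 5 of 27 (18.5%) without. The tRNA, snoRNA and microRNA genes and the arm windows thus had their higher share beside protein-coding starts, while the few snRNA genes showed little difference. Judged by the summit in place of the gene, 14 tRNA genes kept a summit with no protein-coding TSS within 500 bp of it.

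**Figure D1:**
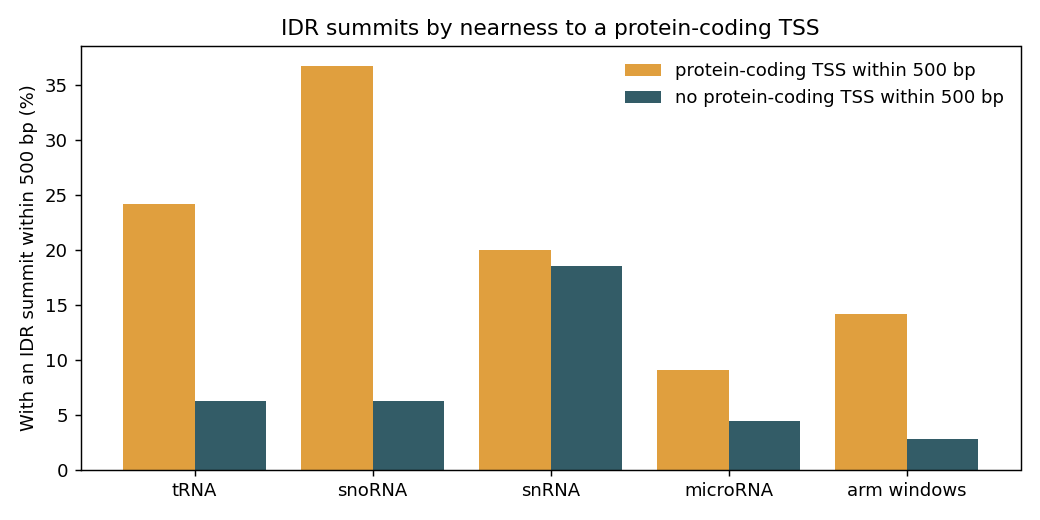
Percent of tRNA, snoRNA, snRNA and microRNA genes and of 73-bp arm windows with an IDR summit within 500 bp, split by whether a protein-coding TSS lies within 500 bp (bars start at 0). The tRNA bars stand at 24.2% and 6.23%, the arm windows at 14.2% and 2.8%, and the few snRNA genes at 20% and 18.5%.

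The IDR summits near tRNA genes lay mostly beside them. Inside a tRNA gene there was 1 IDR summit, that of Glu-CTC-2-3. This is close to the 0.919 that would fall there at the average density of the arms. Of the others, 9 of the 17 summits lay upstream of the nearest tRNA gene and 7 downstream, and the median distance to the gene was 192 bp. Outside the gene, the nearest IDR summit was within 100 bp of 4 genes, beyond that and within 250 bp of 11, and farther out but within 500 bp of 8. The threshold cut through a thin range: Val-CAC-2-5, Gly-GCC-1-9 and Lys-CTT-1-12 were just inside, at 403, 411 and 455 bp. Ile-AAT-1-9, Leu-CAA-2-2 and Leu-CAA-2-1 were just outside, at 539, 548 and 603 bp.

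The density of IDR summits rose little towards the genes. Per 200-bp bin and 100 tRNA genes there were 1.81 IDR summits on average within 400 bp of the gene centre. From 1000 to 2000 bp away there were 1.52, and over the arms 0.834. A summit was counted once for each tRNA gene in reach, so clustered genes count the same summit repeatedly. The flanks of clustered genes can also hold summits that lie at neighbouring tRNA genes. On average the neighbourhoods of tRNA genes out to 2000 bp were denser in IDR summits than the arms as a whole, though single bins went below that level. In the pooled list, most of whose regions are below the IDR threshold, the rise was local: 15.1 per bin within 400 bp, 8.07 from 1000 to 2000 bp and 4.48 over the arms. A pooled summit lay within 500 bp of 158 tRNA genes (54.5%), against 19.9% of arm windows. Among snoRNA, snRNA and microRNA genes it was 22.3%, 31.25% and 26.5%. Without a protein-coding TSS nearby it was 136 of 257 tRNA genes (52.9%), against 18.0%, 29.6% and 24.7% in those classes. In the pooled list 26 tRNA genes had a summit inside the gene, where 4.94 would fall at the arm average. Of the 158 genes, 134 had no IDR summit. Most arm windows with a pooled summit had none either, since only 4.19% of all windows had an IDR summit.

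**Figure D2:**
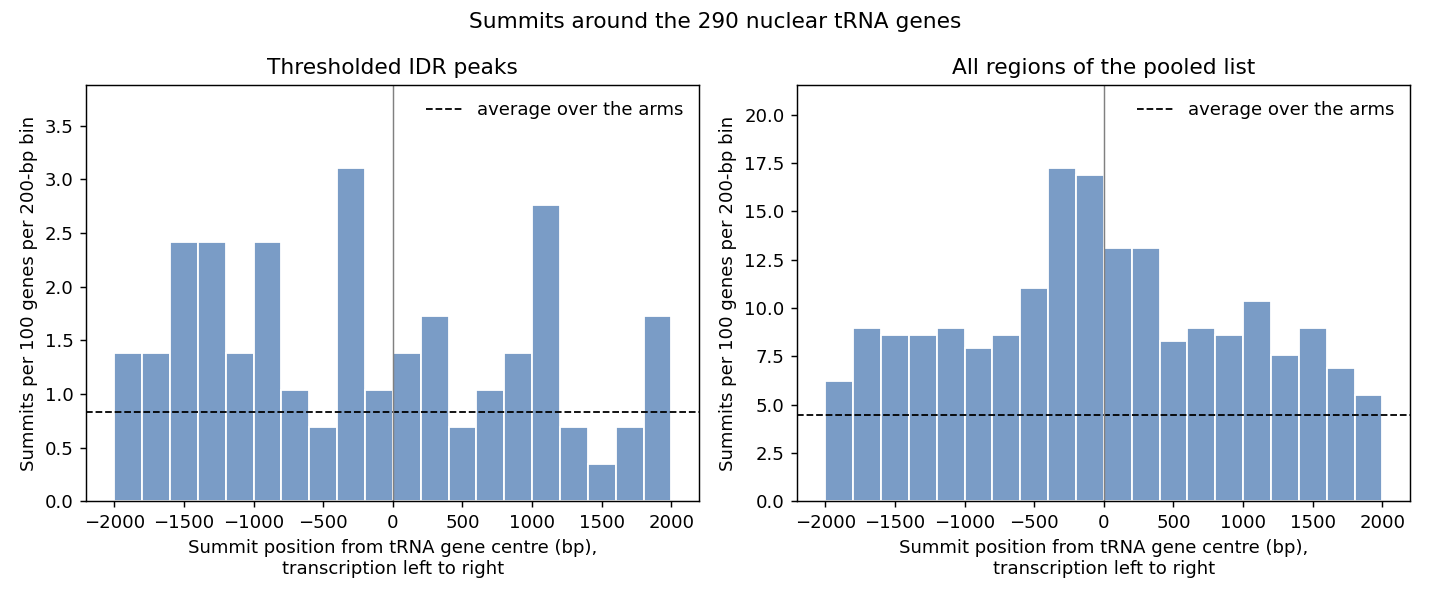
Summits per 100 tRNA genes in 200-bp bins from the gene centre (bp, transcription left to right), for the IDR peaks and the pooled list. A summit counts once for each tRNA gene in reach, and the dashed line is the average over the arms. The pooled list reaches 17.2 in its highest bin beside the genes against 4.48 for the arms, while the IDR bins range from 0.345 to 3.10 and are highest 200 to 400 bp upstream of the centre.

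Replicates differed more at tRNA genes than at gene starts in general. Among the 5586 highest-signal regions of each replicate, as many as there are IDR peaks, a summit lay within 500 bp of 48 tRNA genes (16.6%) in replicate 1, but of 13 (4.48%) in replicate 2 and of 28 (9.66%) in replicate 3. The arm windows gave 4.17%, 4.15% and 4.18%. Replicate 2 was therefore close to the average position of the arms, and replicate 1 the farthest above it. The mean was 10.2% ± 6.05 (SD, n = 3), against 14.7% ± 0.737 (SD, n = 3) at the starts of all other genes. The distance of the tRNA mean from the arm windows is about as large as the SD between replicates. MicroRNA genes had 5.26% ± 0.588 (SD, n = 3) and snoRNA genes 8.67% ± 2.98 (SD, n = 3). The few snRNA genes, 15.6% ± 6.25 (SD, n = 3), also had their highest value in replicate 1 and their lowest in replicate 2.

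The replicates had the same order among tRNA genes with and without a protein-coding start nearby. With no protein-coding TSS within 500 bp, 36 of 257 genes had a summit in replicate 1 (14.01%), against 7 (2.72%) and 17 (6.61%) in replicates 2 and 3. The matching arm windows gave 2.69%, 2.94% and 2.76%. With such a TSS the counts were 12, 6 and 11 of 33 (36.4%, 18.2% and 33.3%). The arm windows with such a TSS gave 14.9%, 12.9% and 14.5%. Of the genes with a summit in any replicate, 21 had it in replicate 1 alone, 2 in replicate 3 alone and 1 in replicate 2 alone. Within 400 bp of the gene centre the density was 3.88, 0.948 and 2.16 summits per bin and 100 genes in replicates 1 to 3, and from 1000 to 2000 bp it was 1.72, 0.966 and 1.24. A summit fell inside the tRNA gene in 5, 1 and 3 cases. The lists of replicates 1 to 3 held 9759, 3212 and 6498 regions whose −log10 q reached 2, which is the same order as the tRNA counts. The part of that difference in the result was not tested, and read depth is unknown.

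**Figure D3:**
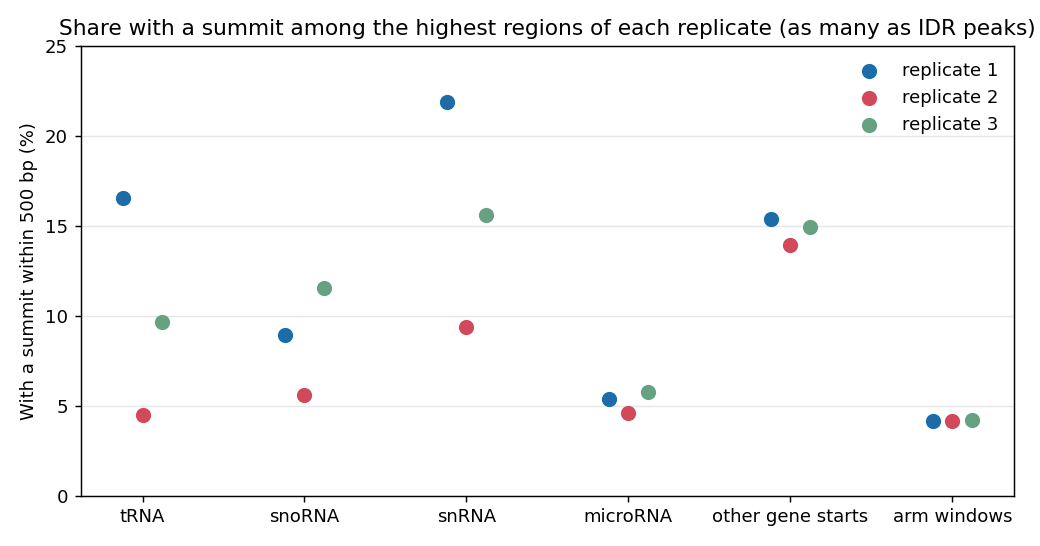
Percent of each gene class, of other gene starts and of arm windows with a summit within 500 bp among the 5586 highest regions, 1 point per replicate. The tRNA points spread from 4.48% to 16.6%, while the gene starts lie between 13.9% and 15.4% and the windows between 4.15% and 4.18%.

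All 24 tRNA genes with an IDR summit also had one among the highest regions of replicate 1, while 12 of them did in replicate 2 and 19 did in replicate 3. In all 3 replicates it was 11 genes, and each of those had an IDR summit. Another 16 genes had a summit in 2 replicates, of which 9 had an IDR summit. Among the 24 genes found in 1 replicate alone, 4 had an IDR summit, namely 3 cysteine genes and Lys-CTT-1-12, which share 1 peak. The IDR list was derived from these same replicates, so these counts are partly fixed by how it was made. The same counts over all IDR peaks are not given here, so none is shown to be particular to tRNA genes.

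Signals of the 17 peaks in the IDR list ranged from 165 to 1652 with a median of 233, and the median of the whole IDR list was 255. The signal is the authors' peak caller value and ranks regions within a list. Above the overall median were 8 peaks, and 9 were below it. The 7 peaks whose nearest tRNA gene had a protein-coding TSS within 500 bp had a median of 410, and the other 10 a median of 197. The peaks at genes without such a TSS were thus mostly in the lower part of the list. The same split of all IDR peaks is not given here, so this is not shown to be particular to tRNA genes.

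The strongest peak lay beside the tyrosine gene Tyr-GTA-1-8 (FBgn0012024), within the gene bodies of CG8036 and p. Its signals in replicates 1 to 3 were 571, 434 and 574, a mean of 526 ± 80.0 (SD, n = 3). The peak ranked 67, 146 and 53 in the replicate lists and 67 in the IDR list, so it was high in each. Its summit lay 206 bp upstream of the tRNA gene and 238 bp from the CG8036 TSS. The other 2 tyrosine genes of that cluster had no IDR summit.

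The peak beside Leu-TAA-2-1 (FBgn0053536), a leucine gene 239 bp from a TSS of Root, which encodes the centrosomal protein rootletin, had signals of 202, 169 and 202 in replicates 1 to 3. Its summit lay 192 bp upstream of the tRNA gene and 383 bp from the TSS of CG13605. The peak beside the phenylalanine gene Phe-GAA-1-2 (FBgn0052740) had signals of 209, 185 and 161. Its summit was 11 bp from the TSS of RpL17, a gene for a protein of the large ribosomal subunit, and 222 bp from the tRNA gene. Both were among the highest 5586 regions of every replicate.

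On 2R a single summit served the tryptophan gene Trp-CCA-2-2 and the glycine gene Gly-GCC-1-9, with signals of 106, 135 and 146. It lay 45 bp from the TSS of CG30122 and 242 bp from the tryptophan gene. The peak beside the histidine gene His-GTG-1-3 had 109 in replicate 1 and 129 in replicate 3, and no region of replicate 2 covered its summit, which was 71 bp from the CG8490 TSS. The peak beside the isoleucine gene Ile-AAT-1-3 had 88.4, 74.0 and 88.0, and its summit was 197 bp from a TSS of ATP8A, a gene for a phospholipid flippase. The peak beside the aspartate genes Asp-GTC-1-4 and Asp-GTC-1-5 had 83.9, 45.6 and 92.0, with its summit 43 bp from the nearer gene and 272 bp from the TSS of the semaphorin gene Sema1a. Of these 7 peaks at genes with a protein-coding TSS nearby, 3 had their summit nearer to the protein-coding TSS than to the tRNA gene.

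The 10 peaks at tRNA genes with no protein-coding TSS within 500 bp had the lower median, but the 2 sets overlapped. The highest, beside the valine gene Val-CAC-2-5 (FBgn0012003) inside the nicotinamidase gene Naam, had signals of 99.4, 82.2 and 148, and its summit was 424 bp from a TSS of Naam. The next lay between the divergent arginine genes Arg-CCT-1-2 and Arg-CCT-1-3, which start 209 bp and 242 bp to either side of the summit, and had 135, 60.5 and 106. The nearest other annotated TSS was 4426 bp from that summit. The replicate lists were not rescaled, so their ranks are given too. In replicates 1 to 3 the valine peak ranked 2536, 2663 and 1167, and the arginine peak 1524, 4015 and 2102. Replicate 2 was thus the lowest by rank for both, though close to replicate 1 at the valine gene.

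The peak beside the threonine gene Thr-AGT-1-2 had 106, 40.8 and 83.3, with the summit 95 bp upstream of the gene. That beside the glutamate gene Glu-TTC-1-5, in a cluster of 7 glutamate and initiator methionine genes, had 115, 89.2 and 79.3, and its summit lay 35 bp from the TSS of another noncoding gene. The peak over the glutamate gene Glu-CTC-2-3 (FBgn0052460) had 70.0, 53.7 and 75.3, with its summit 56 bp downstream of the gene's first base. It ranked 3851 among the 5586 IDR peaks.

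The peak beside Leu-TAA-4-1 (FBgn0051130), inside jar, which encodes myosin VI, had 77.9, 24.8 and 73.6. In replicate 2 it ranked 20702, against 3863 and 3828 in replicates 1 and 3. Alanine genes had 2 of these peaks: that beside Ala-TGC-2-1 had 88.7 in replicate 1 and 86.9 in replicate 3, and that between Ala-CGC-1-2 and Ala-CGC-1-3, inside the gol gene, had 71.6 and 90.5. No region of replicate 2 covered either summit.

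A cluster of 6 genes on 3L, within the chitinase gene Cht7, was the only one with 4 members near a summit. The peak there lay within 500 bp of Cys-GCA-1-1, Cys-GCA-1-2, Cys-GCA-1-3 and Lys-CTT-1-12, with signals of 116, 31.2 and 42.5. Its ranks in replicates 1 to 3 were 1937, 12335 and 9329, and replicate 1 was the high one. The last peak, beside the glutamine gene Gln-TTG-2-1 (FBgn0052493), had 71.97, 61.3 and 39.6. Over the 14 peaks with a region in all 3 replicates, the median SD was 24.1% of the mean. Of the 17 peaks, 9 were among the highest 5586 regions of every replicate. Neither value is given here for all IDR peaks.

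**Figure D4:**
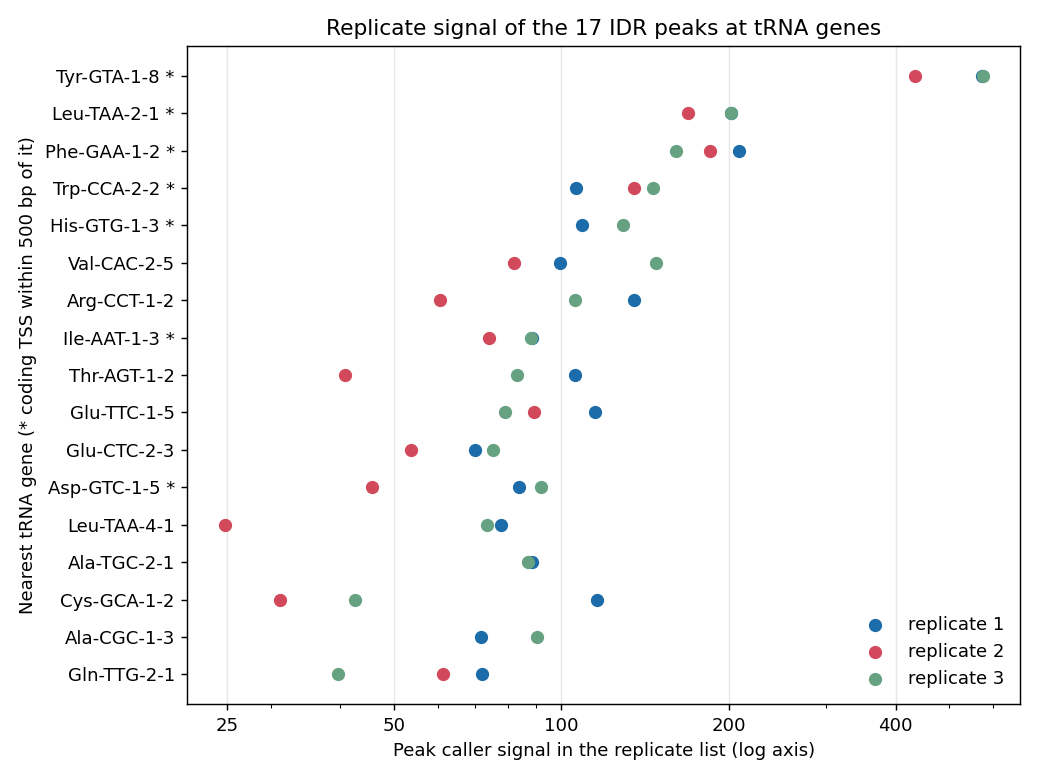
Peak caller signal (log axis) of the 17 IDR peaks in each replicate list, 1 point per replicate and row, named by the nearest tRNA gene; an asterisk marks a gene with a protein-coding TSS within 500 bp. Tyr-GTA-1-8 lies far above the others at 434 to 574, and replicate 2 is low or absent in many of the lower rows. The replicate lists were not rescaled.

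Sequence at the summits was read for the same 6 genes, to show what lies at the summit itself. Each line gives the plus strand at the summit with 50 bases on either side, with the homeodomain words YATTAAR (Y for a pyrimidine, R for a purine) and TAATTA, the promoter words TATCGATA and GGTCACAC and the B box word in capitals where they occur on either strand.
Summit beside Tyr-GTA-1-8 (chr3R:8669330-8669430): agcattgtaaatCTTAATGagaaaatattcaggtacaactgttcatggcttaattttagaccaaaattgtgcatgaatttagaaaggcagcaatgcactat
Summit beside Leu-TAA-2-1 (chr3R:24112722-24112822): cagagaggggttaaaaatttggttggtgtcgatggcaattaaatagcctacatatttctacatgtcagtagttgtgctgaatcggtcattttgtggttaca
Summit beside Leu-TAA-4-1 (chr3R:24265101-24265201): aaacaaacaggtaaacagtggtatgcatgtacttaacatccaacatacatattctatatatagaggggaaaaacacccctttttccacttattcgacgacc
Summit beside Val-CAC-2-5 (chr3R:19671824-19671924): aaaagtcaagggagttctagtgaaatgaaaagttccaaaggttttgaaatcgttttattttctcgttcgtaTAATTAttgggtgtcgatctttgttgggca
Summit beside Cys-GCA-1-2 (chr3L:3096099-3096199): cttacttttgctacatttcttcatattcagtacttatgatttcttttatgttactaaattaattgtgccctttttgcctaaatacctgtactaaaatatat
Summit beside Gln-TTG-2-1 (chrX:3427788-3427888): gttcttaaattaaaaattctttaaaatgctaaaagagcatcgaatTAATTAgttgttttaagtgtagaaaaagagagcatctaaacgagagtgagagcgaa
A homeodomain word was found in 3 of the 6 windows, and the windows were A/T-rich, with 25.7% to 38.6% G and C.

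Over 200 bp at each of the 17 summits, on either strand, YATTAAR was in 2 (11.8%, against 26.8% of all IDR summits) and TAATTA in 6 (35.3%, against 16.6%). CATTAA was in 3 (17.6%, against 16.3%). The replication-related element TATCGATA was in 2 (11.8%, against 2.35%) and GGTCACAC in 0 (against 1.88%). The homeodomain words lay on both sides of the overall share, and 17 windows allow no firmer statement. The B box word was in 6 (35.3%, against 5.78%), and the choice of summits near tRNA genes bears on this count. Mean G and C content was 37.7% at the 17 summits and 37.1% over all IDR summits.

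Summits were spread thinly over the isoacceptor families. Of all 290 tRNA genes, 8.28% had an IDR summit. No family was tested against that share, so neither a high count nor a 0 is shown to differ from it. Alanine and cysteine each had 3 genes with an IDR summit, of 17 and 7. The 3 cysteine genes shared 1 peak, ranked 1937, 12335 and 9329 in replicates 1 to 3. It was among the highest regions of replicate 1 alone. The 3 alanine genes had 2 peaks. The 2 arginine genes below shared 1 peak, and so did the 2 aspartate genes. Arginine had 2 of 26, leucine 2 of 22, glutamate 2 of 19 and aspartate 2 of 14. Glycine, lysine, threonine, valine, glutamine, isoleucine, tyrosine, phenylalanine, tryptophan and histidine had 1 each, of 5 to 20 genes. The families with 0 were serine (of 20), proline (of 17), asparagine (of 10), elongator methionine (of 6), initiator methionine (of 6) and the single selenocysteine gene, whose tRNA reads a stop codon.

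Pooled counts differed more between families, beside 54.5% of all tRNA genes and 19.9% of arm windows. Pooled summits lay near 13 of 14 aspartate, 10 of 11 isoleucine and 9 of 10 asparagine genes. They also lay near 15 of 19 glutamate and 17 of 22 leucine genes. Lower counts were 1 of 10 tyrosine, 1 of 6 methionine, 1 of 5 histidine and 6 of 20 serine genes. Initiator methionine had 2 of 6, and the selenocysteine gene had none. In between were alanine (8 of 17), arginine (10 of 26), cysteine (3 of 7) and glutamine (8 of 12). So were glycine (10 of 20), lysine (9 of 19), phenylalanine (3 of 8) and proline (10 of 17). The others were threonine (9 of 17), tryptophan (5 of 8) and valine (8 of 15). Members of a family often share a cluster, so these counts are not independent. Of 12 glutamine genes 7 had a summit among the highest regions of replicate 1, against 1 and 2 in replicates 2 and 3, and 1 had an IDR summit. Over all tRNA genes the shares in replicates 1 to 3 were 16.6%, 4.48% and 9.66%. In replicate 1, Gln-CTG-2-2 and Gln-CTG-2-3 shared 1 region. So did Gln-CTG-2-4 and Gln-CTG-3-1, and likewise Gln-TTG-1-2 and Gln-TTG-1-3.

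**Figure D5:**
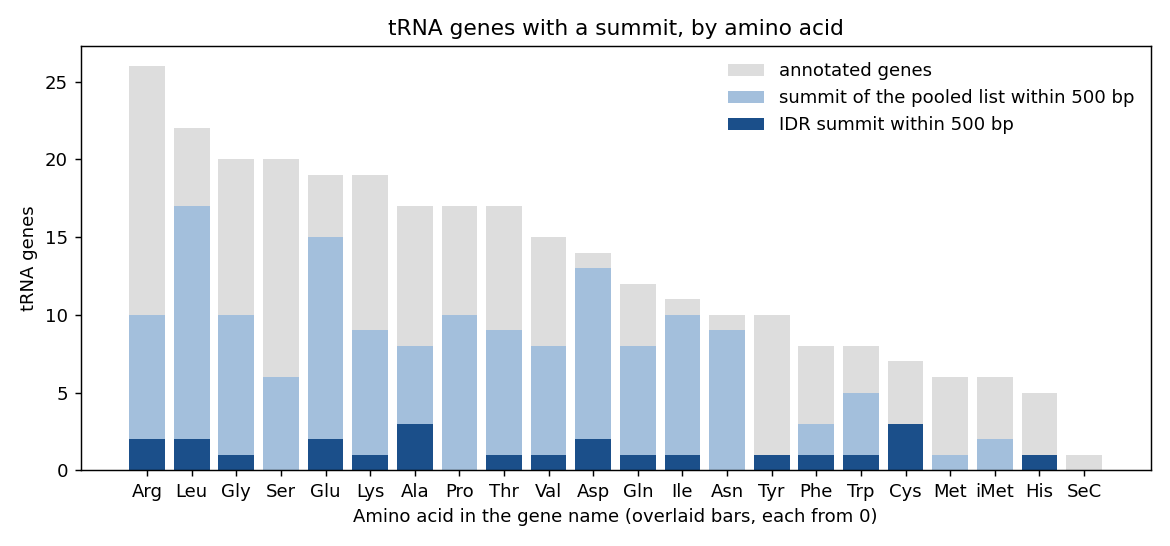
Number of tRNA genes per amino acid (grey), of those with a pooled-list summit within 500 bp (light blue) and of those with an IDR summit (dark blue), overlaid and each drawn from 0. The IDR counts are 0 to 3 in every family, while the pooled counts reach 17 of 22 for leucine.

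Clustering of the genes was described by joining those with gaps of at most 5000 bp. This gave 144 groups, 76 of them single genes, and 17 groups (11.8%) had an IDR summit. A group of many genes covers more of an arm than 1 gene does, 13990 bp in 1 case. No background of that size is given here, so this share cannot be set against those of genes or windows. The share by gene was 6.58% of the 76 single genes, 9.15% of 142 genes in groups of 2 to 4 and 8.33% of 72 genes in groups of 5 or more. The largest groups, of 11 genes each, held arginine, asparagine, isoleucine and lysine genes on 2R and alanine, proline, threonine and valine genes on 3R. Neither had an IDR summit near any member, although 9 and 8 of their genes had a pooled summit. A group of 7 isoleucine and leucine genes on 2R had pooled summits at all 7 members and 1 IDR peak. A group of 7 arginine and serine genes on X had no pooled summit near any member.

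By arm, an IDR summit lay near 11 of 98 genes on 2R (11.2%), 5 of 48 on 3L (10.4%), 2 of 24 on X (8.33%), 4 of 79 on 3R (5.06%) and 2 of 41 on 2L (4.88%). Over all 290 genes the share was 8.28%. The peak density of each arm is not given here, so no arm is shown to be richer at tRNA genes in particular. Genes inside a protein-coding gene had a summit in 12 of 134 cases (8.96%), and the others in 12 of 156 (7.69%). Of the 16 tRNA genes with an intron, 1 had a summit. The 290 genes have 95 distinct sequences, and 238 genes have at least 1 identical copy. An IDR summit lay near 19 of these (7.98%) and near 5 of the 52 genes with none (9.62%). How reads that fit several copies equally well were placed is not given in the sources used here, and its part in these counts was not tested.

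Genes listed with the RNA polymerase III system were set beside the tRNA genes. The list was drawn up by gene name, and which polymerase makes each RNA in flies was not examined. Of 10 genes for U6, U6atac, 7SL, 7SK, RNase P and RNase MRP RNAs, 4 had an IDR summit within 500 bp, against 4.19% of arm windows, 15.1% of other gene starts and 18.8% of all snRNA genes, a class that holds some of the 10. The summit lay inside the gene at snRNA:7SKa (signal 427), whose RNA restrains the elongation factor P-TEFb, and at RNaseMRP:RNA (signal 212), which processes ribosomal RNA. A shared summit (signal 234) lay 268 bp from snRNA:U6:96Ab and 149 bp from snRNA:U6:96Ac, genes for the spliceosomal U6 RNA. Of 100 5S rRNA genes and pseudogenes, which are repeated copies on 2R, 0 had an IDR summit within 500 bp, beside the same 4.19% of arm windows and 15.1% of gene starts. These copies lie next to each other, so they do not count as separate places.

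Of 16 protein genes for the polymerase and its factors, 3 had an IDR summit within 500 bp of a TSS, against 19.7% of all protein-coding genes. They were Bdp1 (signal 1091) and Brf (740), which encode TFIIIB subunits, and Polr3E (723), which encodes a polymerase subunit. These signals were above the median of 255 for all IDR peaks. The share of the list was near that of all protein-coding genes.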

How the data were processed

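ChIP-seq peak lists of 3 biological replicates of 1 group were used. Per the file headers and the deposited file descriptions, the authors made a list of peaks and background for each replicate with one shared control alignment (not analysed here), a list from the pooled alignments, and a thresholded IDR list derived from them, on dm6. The sources used here give no aligner, caller, IDR threshold or read depth. The signal and the −log10 q of each region are the authors' deposited values. They were used within a list only, and means over the replicate lists are descriptions, since the lists were not rescaled. Lists on dm3 were not used.

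Genes came from Ensembl release 115 and sequence from genome release 6, both in dm6 coordinates, and all 290 genes had the same symbol and coordinates in RefSeq. The summit is column 2 plus column 10, counted from 1. Distance runs to the nearest base of the gene. Backgrounds were counted over all genes and over every 73-bp window of the 6 arms. With 1 group no p-value was computed, and a planted set of summits was recovered in a check of the counting. Tools were Python 3.11.15, numpy 2.4.6, pandas 2.3.3 and matplotlib 3.10.9. Members, lists and rules were chosen with earlier results of these data known. Named genes are the 10 highest-signal IDR peaks at tRNA genes, the 10 highest without a protein-coding TSS within 500 bp of the tRNA gene, which together are 16 of the 17, the genes next to the distance threshold, the largest clusters (5 shown because of a tie), each amino acid by its counts and the RNA polymerase III list. The remaining peak, at Asp-GTC-1-5, was named after its values were seen, to account for all 17. The polymerase III list holds no TFIIIC subunit, as no annotated symbol names one. Sequences on 2R, or of genes with a copy there, were not printed. Alternatives covered the window, the distance, the list, the cluster gap and each replicate left out.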

Additional observations from a re-analysis of the deposited data

How the results depend on the processing

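With a 1000-bp window the count of tRNA genes with an IDR summit was 44, the clusters were 26 and the genes with no protein-coding TSS nearby 34; at 250 bp the last count was 9. Where a region had to overlap the gene by 1 bp, the counts were 10, 9 and 7. The higher-signal 2793 IDR peaks gave 10, 8 and 3, with a median signal of 382. With the 6566 pooled regions of −log10 q of at least 2, genes with no protein-coding TSS nearby were 27. Leaving out a replicate kept only IDR peaks found among the highest regions of both others, which lowers counts by construction. The count of genes was 11 without replicate 1, 19 without replicate 2 and 12 without replicate 3, the clusters were 9 to 15, the genes with no protein-coding TSS nearby 5 to 11 and the median signal 263 to 336. The mean share over replicates was 7.07% without replicate 1, 13.1% without replicate 2 and 10.5% without replicate 3, and 46.6% over all regions of the replicate lists. The other alternatives run stayed within 1.5 times the count, within 1 SD of the mean share or, for the median signal, within the median replicate SD as a percent of the mean (24.1%). That percent replaced the SD itself after the values had been seen, since replicate signals are on a lower scale than IDR signals, so the median signals are given: 263 at 250 bp, 210 at 1000 bp, 204 for overlapping regions and 191 for pooled regions of −log10 q of at least 2. The looser A box word was also chosen after seeing the data. Pseudogenes were not left out because 0 of the 290 genes had a pseudogene name. No paired analysis was possible because there is 1 group. Read depth is unknown, and a missing summit says only that none was listed.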
